A study of Homo sapiens with 3 samples.

Results

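The 10 genes PECAM1, CDH5, ESAM, CD34, EMCN, EGFL7, MMRN2, CLEC14A, CD93 and S1PR1 encode cell surface, junction and secreted proteins that are used to recognise endothelial cells of most vessels. They were taken by symbol, by a rule that uses no measured value, from a list proposed with earlier results of these data known. All 10 were found among the 20037 protein-coding genes of a RefSeq gene table of GRCh38.p14. Chromatin accessibility around them was read from 1 ATAC-seq library, replicate 2, of hCMEC/D3, an immortalized endothelial line from human brain capillaries. In ATAC-seq a transposase inserts sequencing adapters into DNA that is not covered by nucleosomes. The cells, at passages 4 to 6, were grown until confluent on plates coated with rat tail collagen type I, and no treatment or other cell type was included. The series also holds 2 RNA-seq libraries of the line, whose tables list transcript identifiers that are not paired with genes and were not used here. With 1 library from 1 line there is no replicate error and no test, so every comparison below is a description of this library.

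An endothelial sheet is held together by adherens and tight junctions, and its surface carries sialomucins, lectin-like receptors and receptors for lipids in the blood. Many of these genes are known to be controlled in endothelium by ETS family transcription factors, through promoters and through enhancers within or beside the gene. Accessible chromatin marks where such elements may lie in a cell type.

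The authors' list held 106415 broad peaks, called from 22188172 tags, with a lowest pileup of 8 tags. Pileup is the number of extended tags stacked over a position. For these broad peaks the value is fractional and stands for a mean over the length of the peak, not for its highest point. Peaks were placed at a gene end (an overlap of at least 1 bp with the 1 kb either side of either end), inside the gene, or in the flank (within 10 kb outside). All 10 genes had a peak at an end, against 72.8% of all protein-coding genes and a mean of 73.8% over genes of similar length. In all, 72 peaks lay at the 10 genes, 12 of them at an end, 39 inside and 21 in the flank. No peak was counted for more than 1 of the 10. The genes had a median of 6 peaks each, with a range of 3 to 19, and all protein-coding genes had a median of 3. Similar length means within 1.5-fold of the gene's own length, and the median of the 10 length-matched medians was also 3.

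**Figure D1:**
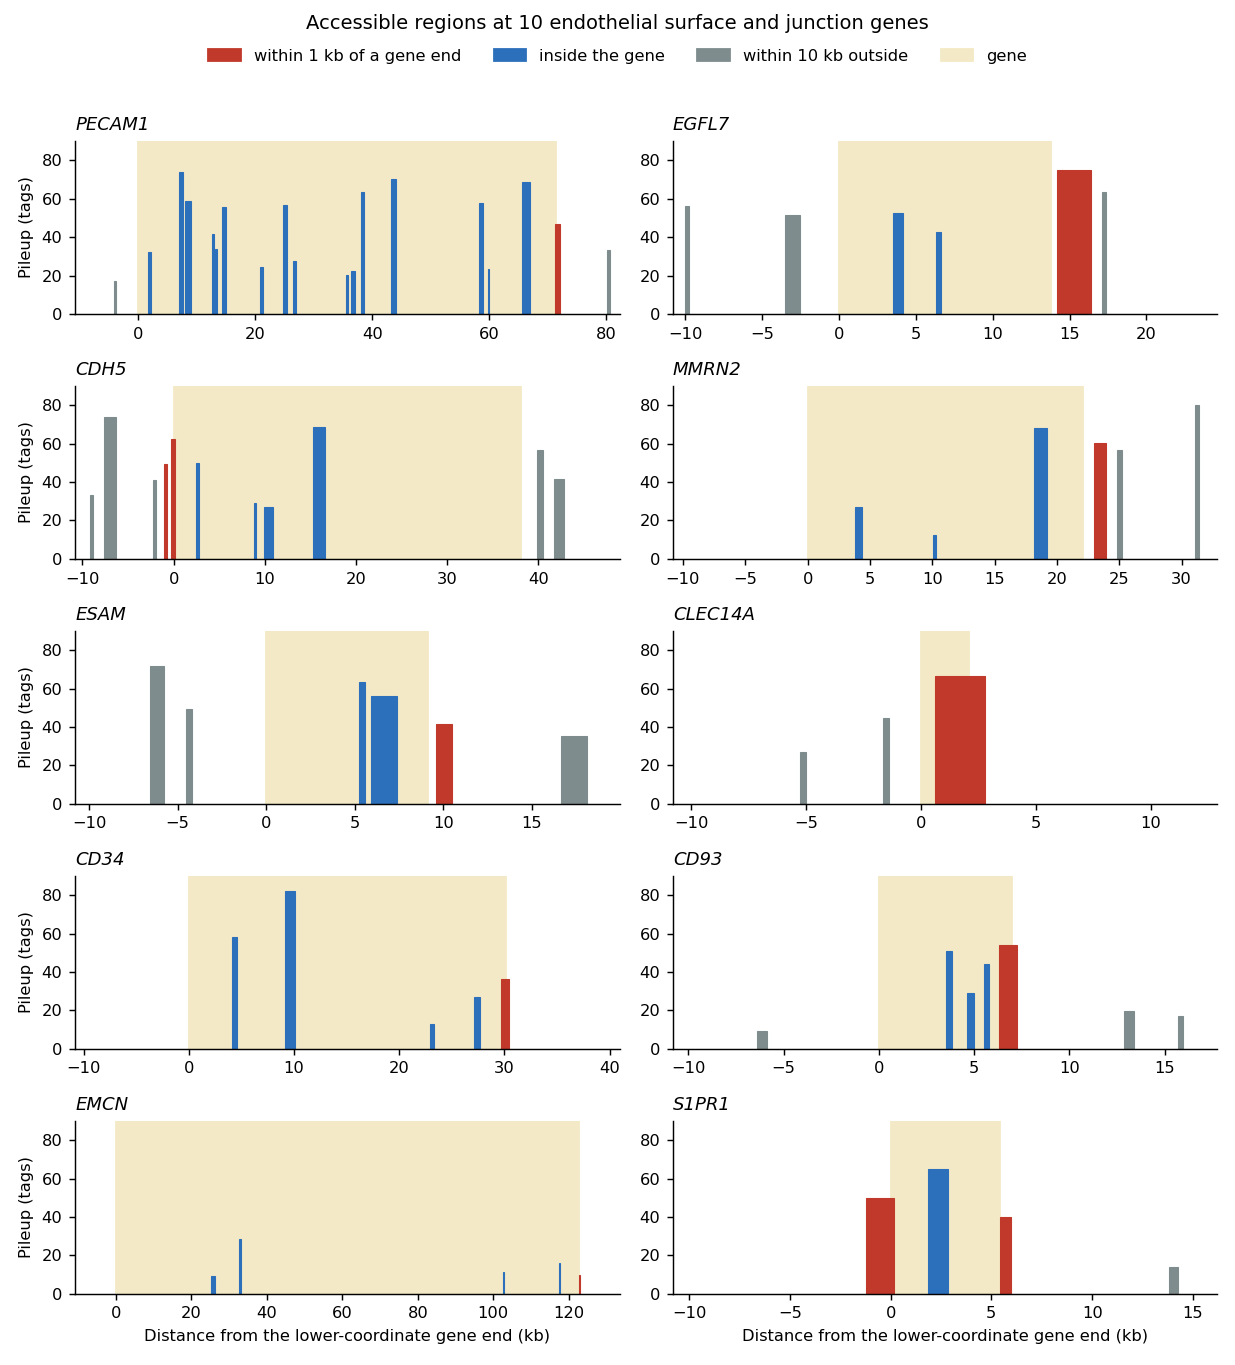
Each panel shows a gene (shaded) and 10 kb either side, with distance from the lower-coordinate gene end in kb on the x axis and pileup in tags on the y axis, and each bar is a peak drawn at its length. PECAM1 carries 19 peaks, the 5 peaks of EMCN stay under 30 tags, and the single wide peak of CLEC14A covers most of that gene.

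Among the junction genes, PECAM1 carried the most peaks of the 10. PECAM1 encodes CD31, an immunoglobulin-type adhesion molecule found at the contacts of endothelial cells and on platelets and leukocytes. Its 19 peaks comprised 16 inside the gene, 1 at an end and 2 in the flank. Their pileup had a minimum of 17.4, a median of 41.4 and a maximum of 74.1 tags, and 8 of the 19 were above 50 tags. These stronger peaks were spread along the 71446 bp of the gene and not gathered at an end. The end peak, chr17:64390600-64391523 at the higher-coordinate end, had a pileup of 46.8 tags. By pileup it was exceeded by 8 of the peaks inside the gene. The highest, chr17:64326290-64327008, had 74.1 tags. The highest fold over local background among the PECAM1 peaks was 8.30, at chr17:64362666-64363453, a peak 43251 bp inward from the lower-coordinate end. Of 3440 genes of similar length, 99.6% had fewer peaks than PECAM1. No other annotated gene of the table overlapped any of the 19 peaks.

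CDH5 encodes VE-cadherin, the cadherin of endothelial adherens junctions. It had 11 peaks, of which 2 were at the lower-coordinate end, 4 inside and 5 in the flank. The end peaks were chr16:66366371-66366822, across the gene end, with 62.6 tags, and chr16:66365643-66365955, 736 bp outside it, with 49.6 tags. A higher pileup of 73.9 tags lay 6352 bp outside the same end, at chr16:66359037-66360339, a peak of 1303 bp that overlaps no annotated gene. A further wide peak of 1344 bp, chr16:66381952-66383295, lay 15261 bp inside the gene with 68.6 tags. CDH5 thus had strong peaks on either side of its end, followed by a stretch of 21.5 kb inside the gene with none. Beyond the other end, peaks 1697 bp and 3588 bp outside the gene had 56.8 and 41.5 tags. Of 4161 genes of similar length, 97.5% had fewer peaks, and 98.7% had fewer in the flank. The noncoding gene LOC105371318 overlaps 5 of the 11 peaks, including both end peaks, so these cannot be given to CDH5 alone. LINC00920 overlaps the flank peak 3588 bp outside the other end.

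ESAM encodes an immunoglobulin-type adhesion molecule of endothelial tight junctions and platelets. Its 6 peaks were 1 at the higher-coordinate end, 2 inside and 3 in the flank. The end peak, chr11:124762732-124763632, began 442 bp outside the gene and had 41.8 tags and a fold of 2.22. Both peaks inside the gene were higher, with 63.4 tags at chr11:124758358-124758677 and 56.3 tags at chr11:124759019-124760506. The noncoding gene ESAM-AS1 overlaps the end peak and the second of these. The highest pileup in the zone, 71.95 tags, belonged to a flank peak at ends of the neighbouring genes NRGN and VSIG2, which NRGN-AS1 also overlaps. The other flank peaks lay within VSIG2 and MSANTD2. Of 3314 genes of similar length, 92.3% had fewer peaks.

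CD34 and EMCN encode sialomucins, heavily glycosylated proteins of the endothelial surface, CD34 also being known from blood stem and progenitor cells. Each of the 2 genes had 5 peaks, with 4 inside and 1 at an end, but their pileups differed widely. At CD34 the pileups, in order of position, were 58.4, 82.2, 13.1, 27.1 and 36.2 tags. The last is the end peak, chr1:207910628-207911409, which holds the start site and also overlaps the noncoding gene LOC107985253. The highest of the 72 peaks was thus inside CD34, at chr1:207890136-207891065, 20060 bp from the start-site end of the gene. Its pileup stood at the 98.8th percentile of all peaks of the list.

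At EMCN the pileups were 9.31, 28.7, 11.5, 15.9 and 10.01 tags. All 5 sat at the floor of the local background, 2.37 tags, which only 3 other peaks of the 72 did. The end peak, chr4:100518139-100518352, was 214 bp long and stood 117 bp outside the gene, at the 4.89th percentile of pileup in the list. EMCN, at 122682 bp the longest of the 10 genes, had a stretch of 69.3 kb without a peak. It was the only one of the 10 with fewer peaks than the median of genes of similar length, 5 against 7. Of those 2534 genes, 31.7% had fewer peaks, and among those with an end peak 1.67% had a lower end-peak pileup. The exception within EMCN was chr4:100427996-100428457, 32655 bp inside the gene, where 28.7 tags gave a fold of 8.81, the largest among the 72 peaks. This peak and 2 others of EMCN, those with 9.31 and 11.5 tags, also overlap the noncoding gene LOC124900740 and cannot be given to EMCN alone. Only 2 of the 5 EMCN peaks passed −log10 q of 5, compared with 4 of the 5 at CD34.

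The 250 bases before the RefSeq start site of CD34 and EMCN are shown to set a promoter that lies wholly in a peak beside one at the edge of a weak peak. They were read 5′ to 3′ on the gene's own strand from GRCh38.p14, and capitals mark the letters GGAA, the core bound by ETS factors, or their complement TTCC.
CD34, chr1:207911126-207911375, minus strand: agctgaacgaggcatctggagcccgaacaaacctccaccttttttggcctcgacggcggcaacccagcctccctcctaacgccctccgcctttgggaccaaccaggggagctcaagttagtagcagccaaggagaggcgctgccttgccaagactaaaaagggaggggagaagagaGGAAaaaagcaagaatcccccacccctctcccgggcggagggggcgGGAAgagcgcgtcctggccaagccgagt
EMCN, chr4:100518023-100518272, minus strand: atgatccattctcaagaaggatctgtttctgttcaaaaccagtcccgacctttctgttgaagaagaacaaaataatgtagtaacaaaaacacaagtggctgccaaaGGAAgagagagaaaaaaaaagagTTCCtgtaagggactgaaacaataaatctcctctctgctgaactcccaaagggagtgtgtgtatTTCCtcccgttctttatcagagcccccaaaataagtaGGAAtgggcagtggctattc
All 300 bases of the CD34 promoter window, which runs from 250 bases before to 50 after the start, were in the end peak. For EMCN it was 134 of the 300. The CD34 stretch holds 14 CpG pairs and 61.6% G and C, and the EMCN stretch 2 CpG pairs and 41.2%. GGAA or its complement occurred 2 times before CD34 and 4 times before EMCN, compared with a median of 3 over all protein-coding windows.

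MMRN2, CLEC14A and CD93 encode known binding partners: multimerin-2 is a glycoprotein of the endothelial matrix, and CLEC14A and CD93 are transmembrane receptors with a C-type lectin-like domain that recognise it. CLEC14A, with 2094 bp the shortest gene of the 10, was mostly covered by 1 peak of 2144 bp, chr14:38254619-38256762, with 66.8 tags. The windows at its ends cover nearly the whole gene, and the shortest peak of the list is 200 bp, so no peak could be placed inside it. The wide peak also overlaps the noncoding gene LOC112268136. Flank peaks 1416 and 5027 bp outside the other end had 44.7 and 27.3 tags. Of 1224 genes of similar length, 60.5% had fewer peaks than the 3 of CLEC14A, and 82.7% of those with an end peak had a lower end-peak pileup.

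CD93 had 7 peaks, of which 4 lay at its higher-coordinate end or within 3106 bp of it. The end peak, chr20:23085650-23086607, had 53.9 tags, and the 3 peaks inside the gene had 51.0, 28.8 and 44.4 tags. The 3 flank peaks were weaker, at 9.45, 19.5 and 17.3 tags. The peaks called over the end and the adjacent part of the gene therefore had higher pileups than those on both sides of it. Of 2853 genes of similar length, 98.1% had fewer peaks and 99.6% had fewer inside the gene.

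MMRN2 had 6 peaks, with 3 inside, 1 at an end and 2 in the flank. The peak counted at its end, chr10:86958502-86959465, lay 887 bp before the start site and within the neighbouring gene SNCG. It had 60.5 tags, and the 300-base promoter window of MMRN2 was not overlapped by any peak. The nearer of its flank peaks, with 56.7 tags, was also within SNCG. Inside the gene a peak 2883 bp from the start-site end, chr10:86953709-86954732, had 68.2 tags, and the others had 27.0 and 12.3. The highest pileup, 80.1 tags, was in the flank 8984 bp before the start, inside the noncoding gene ADIRF-AS1. Peaks were thus called on either side of the annotated start of MMRN2 but not over it. The signal over the start was not measured, and the nearest peaks on either side had local backgrounds of 19.9 and 23.3 tags.

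The same 250 bases are shown for CLEC14A, whose start lies inside the widest peak of these 3 genes, and for MMRN2, whose start lies in no peak, with GGAA and TTCC in capitals.
CLEC14A, chr14:38256094-38256343, minus strand: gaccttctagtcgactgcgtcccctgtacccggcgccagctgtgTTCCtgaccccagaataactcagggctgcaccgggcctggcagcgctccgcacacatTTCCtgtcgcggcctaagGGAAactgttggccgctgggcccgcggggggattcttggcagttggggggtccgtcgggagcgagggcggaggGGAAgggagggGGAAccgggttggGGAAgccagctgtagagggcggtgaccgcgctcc
MMRN2, chr10:86957616-86957865, minus strand: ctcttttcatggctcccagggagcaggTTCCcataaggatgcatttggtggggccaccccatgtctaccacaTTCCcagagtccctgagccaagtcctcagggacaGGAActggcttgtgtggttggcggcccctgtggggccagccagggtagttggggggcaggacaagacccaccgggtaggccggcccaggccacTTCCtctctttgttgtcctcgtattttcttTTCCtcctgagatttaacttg
CLEC14A had 6 matches to GGAA or its complement, the most of the 7 member windows, and MMRN2 had 5. The CLEC14A stretch holds 20 CpG pairs and the MMRN2 stretch 4.

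EGFL7 encodes a protein secreted by endothelial cells, and its introns hold the gene of the endothelial microRNA miR-126. Its 6 peaks comprised 2 inside, 1 at an end and 3 in the flank. The noncoding gene LNCEGFL7OS overlaps 2 of the flank peaks, LOC102724193 also overlaps the farther of them, and AGPAT2 overlaps the third. The promoter table gives EGFL7 2 start sites, and the peaks separated them. No peak overlapped the 300-base window of the first, for which the nearest peak lay 2509 bp away. The window of the second start site lay wholly within chr9:136662356-136663026, a peak with 52.6 tags. The 250 bases before each are shown, first the window without a peak and then the window within a peak, with GGAA and TTCC in capitals.
EGFL7, first start site, chr9:136658606-136658855, plus strand: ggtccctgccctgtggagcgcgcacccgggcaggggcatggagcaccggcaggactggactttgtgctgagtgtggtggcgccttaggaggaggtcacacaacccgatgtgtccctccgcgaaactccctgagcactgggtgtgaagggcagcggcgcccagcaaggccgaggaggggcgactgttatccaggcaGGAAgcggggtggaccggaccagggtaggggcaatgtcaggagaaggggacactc
EGFL7, second start site, chr9:136662666-136662915, plus strand: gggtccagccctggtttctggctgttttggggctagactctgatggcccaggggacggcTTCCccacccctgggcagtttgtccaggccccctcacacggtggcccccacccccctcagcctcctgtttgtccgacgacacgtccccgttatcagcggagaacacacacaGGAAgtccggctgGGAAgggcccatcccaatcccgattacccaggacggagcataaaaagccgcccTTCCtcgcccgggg
The first stretch has 1 match and the second 4. They are alike in composition, with 14 and 13 CpG pairs and 66.4% and 64.8% G and C.

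The end peak of EGFL7, chr9:136673028-136675272, was at the other end of the gene, 350 bp outside it. At 2245 bp and 75.0 tags it was the longest of the 72 peaks, and it lies at an end of the neighbouring gene AGPAT2, which encodes an enzyme of lipid synthesis. Without peaks at ends of other protein-coding genes, EGFL7 was the 1 gene of the 10 to lose its end peak. Among all 20037 protein-coding genes, 14595 had an end peak at first, and 11120 of these, 55.5% of all, kept one. The hairpin of miR-126 overlapped no peak. The nearest was the AGPAT2 peak, 2342 bp away, and the next lay 5130 bp away. Its mature strands are shown in RNA letters with the seed, bases 2 to 8, in capitals, since they are the second product of this locus.
hsa-miR-126-3p, chr9:136670653-136670674, plus strand: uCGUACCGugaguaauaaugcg
hsa-miR-126-5p, chr9:136670616-136670636, plus strand: cAUUAUUAcuuuugguacgcg

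S1PR1 encodes a G protein-coupled receptor for sphingosine-1-phosphate, a blood lipid whose signalling is known to strengthen the endothelial barrier. It had 4 peaks and was among the 2 genes of the 10 with a peak at both ends, a pattern of 15.4% of all protein-coding genes. The other was CLEC14A, where 1 peak reached both windows. The peak at the start, chr1:101235656-101237088, was 1433 bp long with 50.03 tags and contained the whole promoter window. It also overlaps the noncoding gene S1PR1-DT. The peak at the other end had 40.1 tags, and the peak between them, chr1:101238732-101239759, had 64.8 tags. Thus 3 of its peaks lay on or next to a gene of 5415 bp, and the fourth, with 13.7 tags, was 8378 bp away. Of 2457 genes of similar length, 71.2% had fewer peaks.

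Set beside genes of similar length, 9 of the 10 genes had more peaks than the median and 1, EMCN, had fewer. PECAM1, CDH5 and CD93 were beyond the 95th percentile of their length classes, which were at 13, 9 and 6 peaks. ESAM, with 6 peaks, was at it. The same 9 genes had more bases in peaks than the median of their length class. The median total peak length was 3454.5 bp per gene over the 10, compared with 2165 bp over the length classes. As a share of the gene and its flanks, peaks covered 18.1% at ESAM, the highest value, and 1.56% at EMCN, the lowest.

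**Figure D2:**
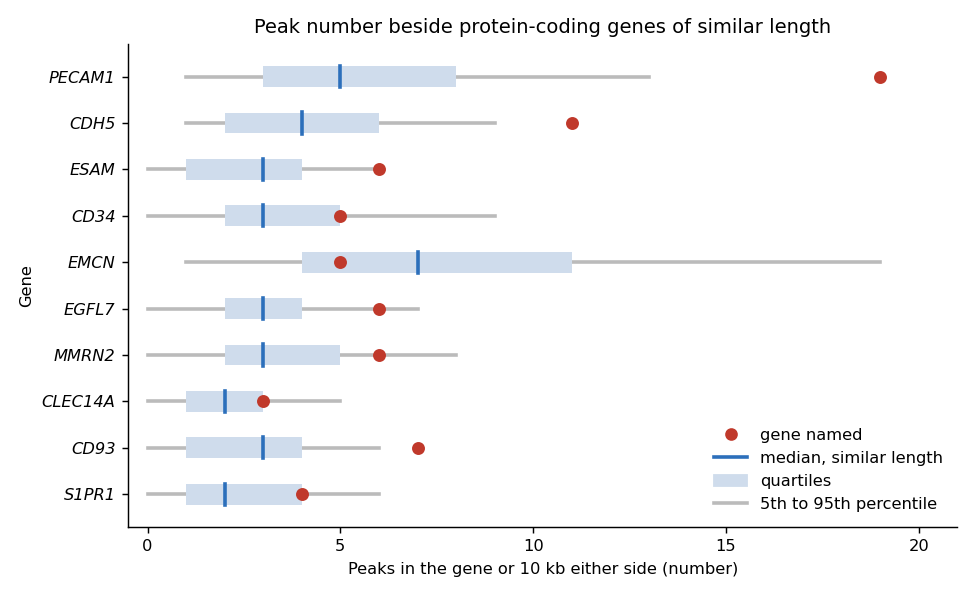
Number of peaks in each gene and 10 kb either side (red points, x axis) beside the median, quartiles and 5th to 95th percentile of protein-coding genes within 1.5-fold of its length. PECAM1, with 19 peaks, CDH5, with 11, and CD93, with 7, lie to the right of the grey lines, and EMCN, with 5, lies left of its median of 7.

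The strongest peak of a gene was often not at its end. The highest pileup was at an end for 3 of the 10 (EGFL7, CLEC14A and CD93), inside for 4 (PECAM1, CD34, EMCN and S1PR1) and in the flank for 3 (CDH5, ESAM and MMRN2). Among all protein-coding genes with a peak it was at an end for 48.3%, and among the 12286 genes with 3 to 19 peaks for 46.2%. The mean over genes of similar length was 50.5%. The EGFL7 peak lies at an end of AGPAT2, and the ESAM flank peak at ends of NRGN and VSIG2. Without peaks at ends of other protein-coding genes, the highest peak was at an end for 2 of the 10. The share of all genes under that setting was not computed. The highest pileup of each gene had a median of 72.9 tags over the 10, compared with 50.8 tags over all protein-coding genes and 50.9 over the length classes. It was taken from a median of 6 peaks at the 10 genes and of 3 in both other sets. The highest end-peak pileup had a median of 51.9 tags, compared with 45.7. By position, the peaks inside the 10 genes had a median of 42.7 tags, compared with 20.5 for all peaks inside protein-coding genes, and the flank peaks 41.5, compared with 27.1. The end peaks were nearer to the rest, with 49.8 tags and 41.4 tags. In these comparisons by position, the peaks of all protein-coding genes were pooled without matching for gene length.

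Pileup and fold ranked these peaks differently. Fold is the authors' value for each peak, its pileup over a local background estimated from the same library within 10 kb. With no control, that stretch holds the tags of the peak itself and of its neighbours, so this background is not independent of the peaks. Over the 72 peaks the median pileup was 44.5 tags and the median fold 3.39, whereas over the whole list they were 21.6 tags and 4.49. Of the 72, 60 were above the median pileup of the list. The local background, computed from pileup and fold, had a median of 12.0 tags over the 72 peaks and 3.32 tags over the list. For the highest end peak of each gene it was above the median of all genes with an end peak, 7.88 tags, at 8 of the 10, the exceptions being CD34 with 7.58 and EMCN with 2.37. The fold of that peak was below the median of all such genes, 5.02, at 10 of the 10, from 1.87 at EGFL7 to 4.34 at CD34. With a fold of at least 4, only CD34 of the 10 kept an end peak. Among all 20037 protein-coding genes, 14595 had one unfiltered, and 11226 of these, 56% of all, kept one. With −log10 q of at least 5, 8 of the 10 kept one, all but ESAM and EMCN. Of the same 14595 genes 13367 did, which is 66.7% of all 20037. Under both filters the 10 genes thus lost end peaks in a larger proportion than those 14595 genes. Low fold at EMCN went with few tags, and low fold at EGFL7 with a background of 39.7 tags, the highest of the 72.

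**Figure D3:**
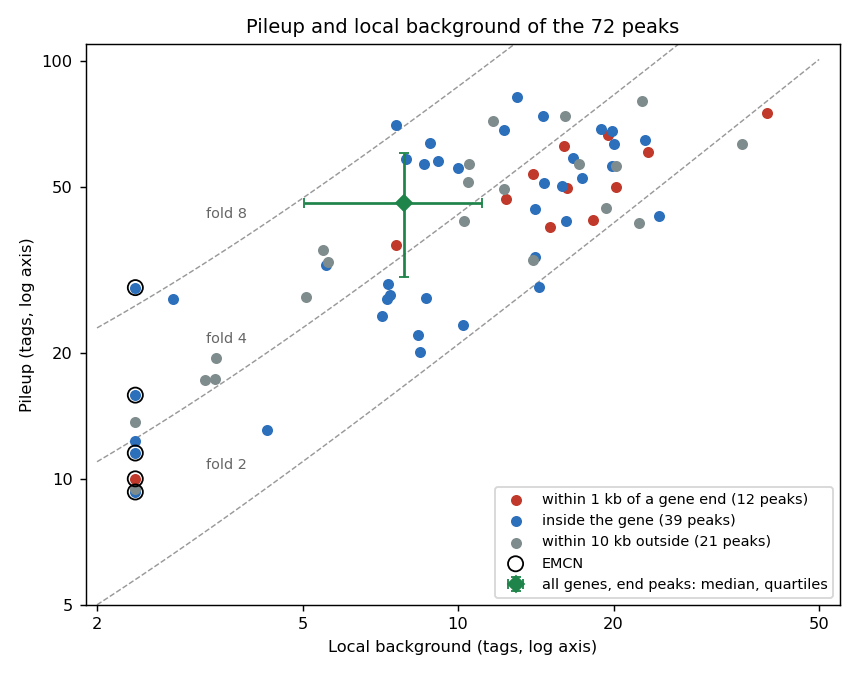
Pileup (y, tags, log axis) against local background (x, tags, log axis) for the 72 peaks, coloured by position, with dashed lines of equal fold and a green diamond for the median and quartiles of the highest end peaks of all protein-coding genes. The red end peaks, apart from those of CD34 and EMCN, lie right of the diamond, and the circled peaks of EMCN stand at the floor of 2.37 tags.

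Start sites could be placed for the 6 genes with an entry in the RefSeq promoter table. PECAM1, CDH5, ESAM and CD93 had no entry in it. All 6 had a peak within 1 kb of a start site, against 74% of protein-coding genes with an entry. Of their 7 windows of 300 bases, 5 were overlapped by a peak, against 64.7% of such windows, and 4 lay wholly within peaks, against 52%. These shares are close to the background. Over the windows of all protein-coding genes the share with a peak rose with CpG number in the 250 bases before the start, from 17.9% of those with 0 to 5 CpG pairs to 89.8% of those with 21 or more. EMCN, with 2 CpG pairs, was overlapped by a peak, and MMRN2, with 4, was not. The other 5 windows had 13 to 20 CpG pairs, and the first EGFL7 window was the only one of these without a peak. The median of the 7 was 14 CpG pairs, compared with 16 over the windows of all protein-coding genes.

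Short motifs were searched on both strands of the same 250 bases. GGAA was in 7 of the 7, with 1 to 6 matches and a median of 4, and in 92.5% of all protein-coding windows, with a median of 3. Its longer form CCGGAA, which contains GGAA, was in none of the 7 and in 17.9% of all. The KLF motif CACCC was in 5 (58.4% of all) and the E-box CANNTG in 5 (58.1%). The SOX motif ACAAAG was in 2 (11.6%) and CCAAT in 2 (32.8%). None of the 7 held the GATA motif AGATAA (7.102%), the AP-1 motif TGANTCA (5.37%) or the TATA box letters TATAAA (9.03%). A match is a match of letters, and the peaks inside and outside the genes were not searched.

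A list of 30 other endothelial surface and junction genes was read with the same windows. It includes junction genes that are not particular to endothelium, such as the catenin genes and JUP. Of the 30 genes, 29 had an end peak, against 72.8% of all protein-coding genes. The exception was APLNR, a receptor gene with no peak in its zone. The list had a median of 7 peaks, and 23 of the 30 were above the median of their length class. The highest end peaks were at JUP, which encodes plakoglobin, with 82.4 tags, PROCR, the endothelial protein C receptor, with 80.3 tags, and ROBO4, an endothelial guidance receptor, with 73.0 tags. The median end-peak pileup of the list was 38.8 tags, and the median local background 8.03 tags, compared with 51.9 and 17.1 tags at the 10 genes. PTPRB, which encodes the phosphatase VE-PTP, resembled EMCN in length and in the weakness of its end peak, which had 9.60 tags, but had 10 peaks in all. Of 6 endothelial transcription factor genes, 5 had an end peak, against 72.8% of all protein-coding genes. All 6 had more peaks than the median of their length class. FLI1 was the 1 without an end peak, and the highest end peaks were at LYL1 with 81.3 tags, SOX17 with 35.2 and TAL1 with 33.4.

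Markers of other cells were read because PECAM1, CD34 and CD93 are shared with blood cells. Over all protein-coding genes, 72.8% had an end peak, with a median pileup of 45.7 tags. The marker lists are short, and shares of 60% to 66.7% in them are near that of all genes. Of 10 haematopoietic markers, 6 had an end peak, with a median pileup of 23.2 tags. Those without one included CD79A and MPO, and the highest were at SPI1 with 38.2 tags, CD14 with 33.1 and CD3E with 28.5. Of 6 epithelial markers, 4 had an end peak, not CDH1 or ESRP1. The highest was a peak shared by KRT8 and KRT18 with 77.4 tags, and EPCAM had 9.31 tags. Of 6 mural markers, 4 had an end peak, not DES or NOTCH3, and the highest were at RGS5 with 56.8 tags, PDGFRB with 38.5 and ACTA2 with 37.6. Of 6 neural markers, 3 had an end peak, not AQP4, MOG or OLIG2, with 48.0 tags at SYT1, 21.3 at GFAP and 13.6 at RBFOX3. The end peak of EMCN, at 10.01 tags, was thus lower than those of several markers of other cells, while those of the other 9 genes had 36.2 tags or more. The median end-peak pileup was 43.35 tags over the epithelial list and 38.06 over the mural list, so CD34, with 36.2, was below both and ESAM, with 41.8, below the epithelial one. By number of peaks, 5 of the 6 mural markers were above the median of their length class, with a median of 8 peaks. This was so for 5 of the 10 haematopoietic, 3 of the 6 epithelial and 3 of the 6 neural markers. More peaks than in genes of similar length were thus also counted at most mural markers, a list that is not endothelial. The median number of peaks was 3 over the haematopoietic, 4 over the epithelial and 5.5 over the neural list. The medians of their length classes were 3, 3.5 and 3.

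**Figure D4:**
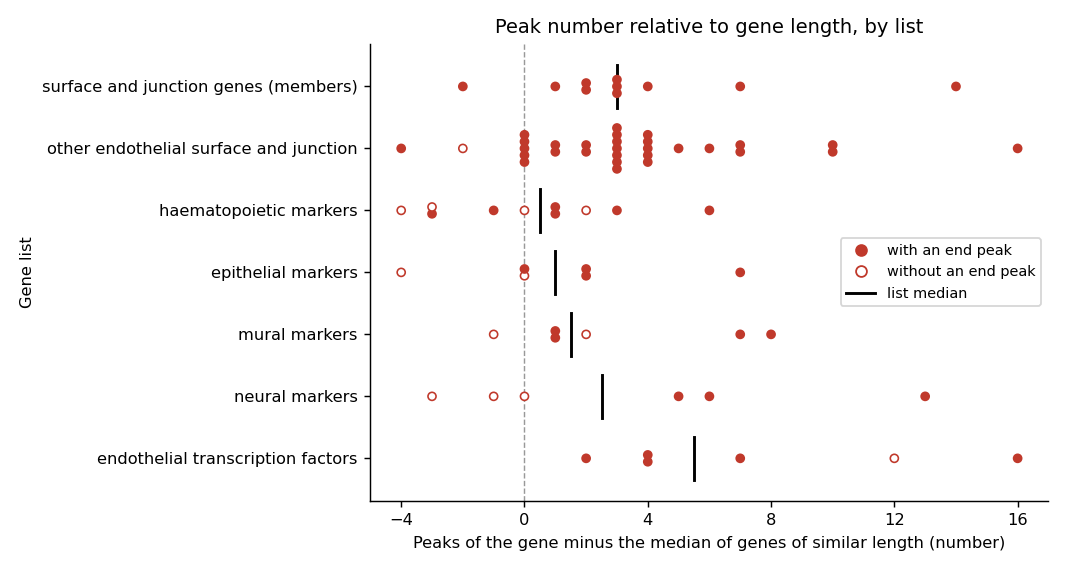
Number of peaks of each gene minus the median of genes of similar length (x axis), by gene list, with filled points for genes with an end peak, open points for genes without, and a black line for the median of the list. In the top line, which holds the 10 genes, all points are filled and 1, EMCN, lies left of 0, whereas the list of 30 other endothelial surface and junction genes has 1 open point, APLNR, and 2 points left of 0, APLNR and JAM2.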

How the data were processed

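Per the file headers, the authors called broad peaks with MACS 2.2.7.1 on 1 ATAC library without a control, in single-end mode, with a tag shift of -100 bp, a tag extension of 200 bp and thresholds on q of 0.05 (strong) and 0.1 (broad). The header gives 31532245 tags, of which 22188172 remained with 1 tag kept per position, and a genome size of 1870000000 bp, the caller's mouse setting, which raises the background floor. The deposited columns used were the pileup signal, the fold enrichment ratio and −log10 of the p-value and q-value of each peak. Bowtie2, SAMtools 1.13, Picard and GRCh38 are among the names in the submitters' processing notes, which give them no role, and the peak list names no build. The fit to GRCh38.p14 was checked by moving all peaks: 72.8% of protein-coding genes had an end peak unmoved, and 27.5% to 35.8% after offsets of 2 kb to 50 kb.

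Peaks within 10 kb of each gene were placed with Python 3.11.15 and pandas 2.3.3, in code tested on simulated data. The local background was computed as (pileup + 1) / fold − 1, and a peak within 0.01 tags of the lowest value was called at the floor. Other genes overlapping a peak are named for the described peaks of the 10 genes, because a peak can belong to either. Such overlaps were not looked up for peaks of the comparison lists. Promoter and miRNA sequences are RefSeq's, of GRCh38.p14. The RNA tables were not used, since no table here pairs their transcripts with genes, so the planned RNA levels were not made. The 10 genes and the comparison lists were chosen with earlier results of these data known. The rule for named genes was all 10 members and, of each other list, the genes without an end peak and the 3 with the highest end-peak pileup; PTPRB and JAM2 were chosen after their values were seen. Some genes that this rule names are not reported here.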

Additional observations from a re-analysis of the deposited data

How the results depend on the processing

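Depth limits the list, whose lowest pileup was 8 tags, and a call needed more tags where the local background was higher. At EGFL7 a peak of 42.7 tags over a background of 24.5 tags reached a −log10 q of only 1.78. Lack of a peak therefore shows neither closed chromatin nor a signal under 8 tags. Of 48 alternative values of the main results, 39 were within 1.5-fold of the reported value and 9 were not. With peaks of at least 4-fold only, the 72 peaks became 25, the 10 genes with an end peak became 1, the median number of peaks became 2 and the median total peak length 915 bp. Under that filter 4 of the 10 genes, not 9, were above their length class, whose median was also 2, and 0 had their highest peak at an end. The 9 genes above their length class stayed 9 under every other setting run. With flanks of 25 kb the peaks became 110, the median number 10 and the median total length 6626 bp, while the length classes also rose, to 5 peaks and 3470 bp. An end window of 500 bp left 9 genes with an end peak, without MMRN2, and an overlap of at least 200 bp also left 9, without MMRN2. The start-site count was 5 of 6 at 500 bp. The alternatives for the position of the highest peak and a length class of 1.2-fold for total length were chosen after seeing the data. For the ATAC group, a single library, no replicate could be left out. No paired analysis was possible because replicates of this assay are not paired with another group here.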
